A study of Homo sapiens with 4 samples.

Results

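The S100 genes encode small calcium-binding proteins, and 10 of them were followed here in HCT116, a human colon cancer cell line. They were taken by gene symbol (S100A2, S100A3, S100A4, S100A6, S100A10, S100A11, S100A13, S100A14, S100A16 and S100P) from tables of 19974 gene rows, and each of the 10 had a row in every library. HCT116 cells in DMEM with serum were transfected for 36 h at 100 nM with a non-targeting control siRNA (si-NC, "Control" in the labels) or with siRNA against the long noncoding RNA LINC00152 (si-152). Each group had 2 biological replicates, and all 4 libraries came from this 1 cell line, so every group shared its genotype, medium and time. LINC00152 itself was not analysed here, and how far the siRNA lowered it is therefore not given.

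S100 proteins carry a pair of EF-hand loops, the helix-loop-helix fold that holds calcium, and most work as dimers that open a binding face when calcium rises. They have no enzyme activity and act by binding other proteins, among them annexins, myosin heavy chain and p53, and some are also released from cells. Epithelia and carcinomas use a characteristic set of them, and several, such as S100A4 and S100P, are known for their part in cell motility and metastasis.

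The values were read as FPKM, a level scaled to library size and transcript length, so levels of different genes can be set side by side. The sums over all genes lay between 424754 and 534311 FPKM, each library had between 14589 and 14686 genes above 0, and sequencing depth is unknown. Replicate 1 of each group was set apart from replicate 2 by the first principal component (54.4% of variance). In such bulk libraries, less RNA per cell and fewer cells with the transcript cannot be told apart. Of 7 epithelial markers, EPCAM was between 190.5 and 239.5 FPKM and KRT8 between 717.6 and 1138 FPKM, while the gut epithelial marker VIL1 was listed at 0 in 3 libraries and at 0.0567 FPKM in the other. Of 7 markers of other cells, PTPRC of leukocytes and COL1A2 of fibroblasts were listed at 0 in all 4 libraries, COL1A1 was between 7.02 and 7.98 FPKM, and the highest value of the remaining ones was 1.88 FPKM for DES.

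By position, 9 of the 10 genes lie on chromosome 1 of GRCh38 (GENCODE v29) and all 9 are on the minus strand. S100A10 (151982915 to 151994390) and S100A11 (152032506 to 152047907) sit at one end of the epidermal differentiation complex, a cluster of genes for skin and other epithelia. The other 7 follow in the order S100A6 (153534599 to 153536244), S100A4 (153543613 to 153550136), S100A3 (153547329 to 153549372, inside the span of S100A4), S100A2 (153561108 to 153567890), S100A16 (153606886 to 153613145), S100A14 (153614255 to 153616986) and S100A13 (153618787 to 153631360). S100P lies apart on the plus strand of chromosome 4 (6693069 to 6697170). The proteins are short, with coding lengths between 90 codons for S100A6 and 105 codons for S100A11, and the transcripts measured between 594 and 1279 bases.

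The bases just before a RefSeq transcription start are shown for the 6 genes whose si-152 libraries both lay below both si-NC libraries, so that their starts can be compared. Of all genes tested, 13.9% were separated in this way. The choice depends on scaling, since with median-ratio size factors only S100A2, S100A14 and S100P were separated. Quantile normalization separated the same 6 genes as no scaling. S100P also reached 1 FPKM only in si-NC. Each line gives the 60 bases before a RefSeq start (GRCh38.p14), 5′ to 3′ on the strand of the gene, with capitals for a TATA box (TATAAA) or an AP-1 word (TGANTCA). They lie at chr1:153616326-153616385 (S100A14, minus), chr1:153545807-153545866 (S100A4, minus), chr1:153565845-153565904 (the first of the RefSeq starts of S100A2, minus), chr1:153549259-153549318 (S100A3, minus), chr1:151993860-151993919 (S100A10, minus) and chr4:6693818-6693877 (S100P, plus). All 6 stretches lie inside the GENCODE spans given above, so these RefSeq starts are downstream of the outermost GENCODE starts. Which starts HCT116 uses was not tested.
S100A14: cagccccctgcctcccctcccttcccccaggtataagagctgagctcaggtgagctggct
S100A4: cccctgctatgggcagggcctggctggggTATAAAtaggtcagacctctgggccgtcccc
S100A2: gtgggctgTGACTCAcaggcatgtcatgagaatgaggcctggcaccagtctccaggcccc
S100A3: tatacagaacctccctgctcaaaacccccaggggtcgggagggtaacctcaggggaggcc
S100A10: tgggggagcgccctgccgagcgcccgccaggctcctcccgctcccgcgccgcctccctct
S100P: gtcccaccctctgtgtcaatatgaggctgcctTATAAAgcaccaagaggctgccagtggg

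The 10 genes had 14 starts among the 35116 RefSeq starts searched, over 250 bases before each. A gene was counted when any of its starts had the word, while the shares are of single starts. S100A2, S100A13 and S100A16 have several starts and so had more chances. TATAAA on the sense strand was found before S100A4, S100A13 and S100P and in 6.8% of all starts. The AP-1 word TGANTCA, whose reverse complement is the same word, was found before S100A2 and S100A3 and in 6.6% of all starts. GGAATG, the core of the motif bound by TEAD factors, was searched on both strands and found before S100A16 and in 11.9% of all starts. The GC box GGGCGG, also searched on both strands, was found before 6 of the 10 genes and in 42.6% of all starts. None of these words was found before S100A14, and none was common to the 6 genes whose bases are shown.

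The family was abundant in HCT116. Summed over the 10 genes the level was 4726 and 8110 FPKM with si-NC and 4549 and 6172 FPKM with si-152, or between 1.02% and 1.52% of all FPKM. S100A6 alone made up 46.8% of the members' sum in si-NC replicate 1 and between 57.3% and 59.9% in the other libraries. The members' levels spanned from a mean of 3304 ± 1176 FPKM for S100A6 (SD, n = 4 libraries) to 1.01 ± 0.371 FPKM for S100P (SD, n = 4 libraries). S100A6 ranked between 9 and 28 among the 19974 rows, and S100P between 10514 and 11779.

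**Figure D1:**
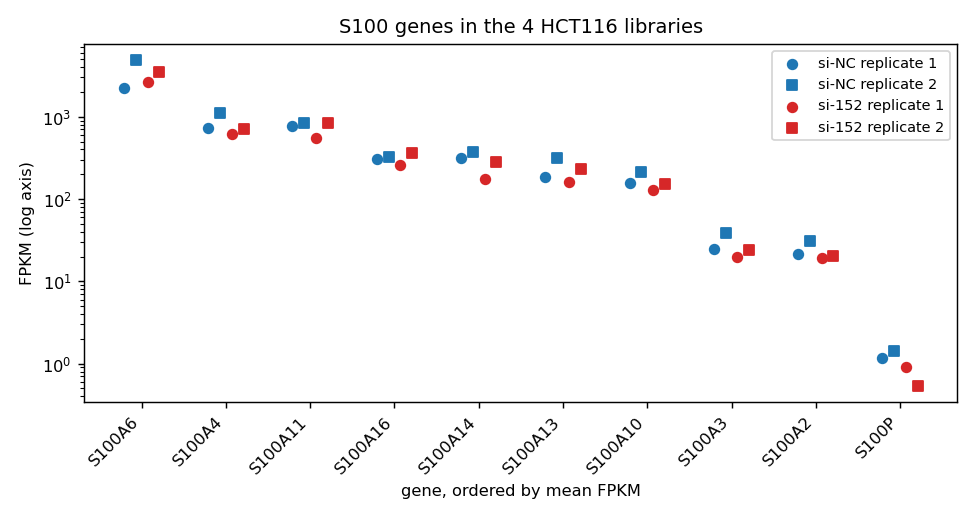
FPKM (log axis) of the 10 S100 genes, ordered by mean, with 1 point for each library (blue si-NC, red si-152, circles replicate 1, squares replicate 2). S100A6 was the highest gene in all 4 libraries and S100P the lowest, and si-NC replicate 2 was the highest point for 9 of the 10 genes.

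In order of mean level, S100A6 was followed by S100A4, S100A11, S100A16, S100A14, S100A13, S100A10, S100A3, S100A2 and S100P. The ranges over the 4 libraries were apart at 4 of the 9 steps in this order, from S100A6 to S100A4 (a ratio of means of 4.15), from S100A11 to S100A16 (2.38), from S100A10 to S100A3 (6.07) and from S100A2 to S100P (22.8). S100A4 and S100A11 (797 and 750 FPKM in the mean) did not differ beyond their spread and changed places in 2 of the 4 libraries. S100A16 and S100A14 (315 and 287 FPKM) did so as well. S100A14, S100A13 and S100A10 overlapped in range, though each was above the next in all 4 libraries, and the same held for S100A3 above S100A2. The steps in level thus placed S100A6 by itself, S100A4 with S100A11, 4 genes between 163 and 315 FPKM, S100A3 with S100A2, and S100P by itself.

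Most other members of the family were listed at or near 0. Of 18 family genes outside the 10, among them the fused-type members such as FLG and TCHH that build the cornified layer of skin, 12 were listed at 0 in every library. These included S100A8 and S100A12 of myeloid cells and S100B of neural cells and melanocytes, while S100A9, the partner of S100A8, was listed at 0 in 3 libraries and at 0.114 FPKM in the other. S100A5 alone passed 1 FPKM, at 5.90 and 5.70 FPKM with si-NC and at 4.64 and 3.62 FPKM in si-152. S100A5 lies between S100A6 and S100A4 on chromosome 1 and was below both in every library.

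The comparison of si-152 with si-NC asks how transcript levels differ after transfection with siRNA against LINC00152. All 10 S100 genes had a lower mean on the log2(FPKM + 1) scale in si-152, against 45.8% of all 11222 genes tested. The number lower was 8 of 10 with quantile normalization, and 7 without si-NC replicate 2 or without si-152 replicate 1. Leaving out S100P, it was 9 of 9. The median log2 fold change of the S100 genes was -0.39, where that of all genes tested was 0.02. The S100 median was -0.67 without si-NC replicate 1 and -0.15 without si-NC replicate 2. The fold changes ran from -0.62 for S100A14 to -0.02 for S100A16. None of the 10 passed adjustment over all genes by limma (adjusted p = 0.9996 for each), where 0.0178% of all genes did, and S100A14 alone had an unadjusted p under 0.05 by limma, against 2.5% of all genes lower and 1.89% higher at that threshold. The si-152 libraries both lay below both si-NC libraries in 6 of the 10 (S100A2, S100A3, S100A4, S100A10, S100A14 and S100P), against 13.9% of all genes in this direction, and in the opposite direction in 0 of the 10, against 16.5%. Both same-numbered replicate pairs were lower in 8 of the 10, against 27.3% of all genes. S100P passed the filter of 1 FPKM in 2 libraries only through si-NC, so it could hardly enter the test without being lower in si-152. Without S100P, the groups were apart in 5 of the other 9 genes and both pairs were lower in 7. With median-ratio size factors the groups were apart in 3 of the 10 genes (S100A2, S100A14 and S100P), against 15.5% of all genes. Without S100P, only S100A2 and S100A14 remained of the other 9. Quantile normalization left the groups apart in the same 6 of the 10 as without scaling, against 16.6% of all genes. Epithelial markers were lower in si-152 too, 5 of the 6 tested, with a median of -0.17 and groups apart for KRT8 (-0.43, standard error 0.28) and KRT18 (-0.24, standard error 0.25), and the part of this in the S100 values was not tested.

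**Figure D2:**
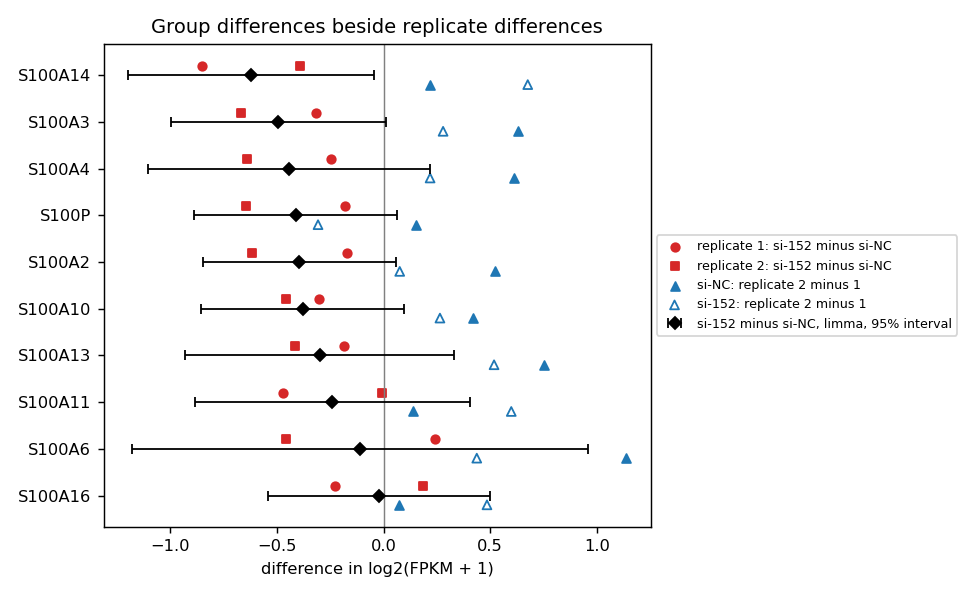
Differences in log2(FPKM + 1) for the 10 genes: diamonds show si-152 minus si-NC with the 95% interval of limma, red points the same difference within each replicate number, and blue triangles replicate 2 minus replicate 1 within a group. The interval of S100A14 alone lies below 0, and for every gene other than S100P at least 1 replicate difference was larger in size than the group difference.

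S100A14 is an S100 protein of epithelia, whose calcium loops are atypical. It measured 318.7 and 370.3 FPKM in si-NC (344.5 ± 36.5, SD, n = 2) and at 176.2 and 282.1 FPKM in si-152 (229.1 ± 74.9, SD, n = 2), so that both si-152 libraries were below both si-NC libraries. The log2 fold change was -0.62 (standard error 0.26, 95% interval -1.20 to -0.05, unadjusted p = 0.0371 by limma), or 66.5% of the si-NC mean. The difference was larger in replicate 1 (-0.85) than in replicate 2 (-0.39), and the si-152 replicates themselves differed by 0.68. Without si-152 replicate 1 the log2 fold change was -0.28 (unadjusted p = 0.339 by limma), without si-NC replicate 2 it was -0.51 (unadjusted p = 0.145 by limma), and with size factors the unadjusted p was 0.065 by limma. Without si-152 replicate 2 it was -0.96 (unadjusted p = 0.000891 by limma), and without si-NC replicate 1 it was -0.73 (unadjusted p = 0.0429 by limma).

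S100A16, its neighbour on chromosome 1 and a widely expressed member of the family, had nearly the same mean in both groups. The levels were 307.1 and 322.5 FPKM with si-NC, against 262.1 and 367.2 FPKM in si-152, where the si-152 values lay on either side of the si-NC values. Its log2 fold change was -0.02 with a 95% interval from -0.54 to 0.50, so a change of up to about 0.5 in either direction was within the error. With quantile normalization the sign turned (0.12).

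S100A2, an epithelial member known as a target of p53, measured 21.5 and 31.3 FPKM in si-NC, against 18.9 and 20.0 FPKM in si-152. Its log2 fold change was -0.39 (standard error 0.20, unadjusted p = 0.0797 by limma), and the si-152 replicates were close to each other while si-NC replicate 2 stood above the other libraries. The difference between the si-NC replicates, 0.52, was larger than the group difference. Without si-NC replicate 1 the log2 fold change of S100A2 was -0.66 (unadjusted p = 0.00914 by limma), and without si-NC replicate 2 it was -0.13.

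S100A3, a cysteine-rich member best known from the hair cuticle, measured 24.8 and 38.9 FPKM in si-NC, against 19.7 and 24.1 FPKM in si-152. The groups did not overlap, but si-NC replicate 1 and si-152 replicate 2 were close. The log2 fold change was -0.49 (standard error 0.22, unadjusted p = 0.0537 by limma), against a difference of 0.63 between the si-NC replicates. For S100A3 it was -0.81 without si-NC replicate 1 (unadjusted p = 0.0014 by limma), -0.63 without si-152 replicate 2 (unadjusted p = 0.0106 by limma) and -0.18 without si-NC replicate 2.

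S100A4, which binds the heavy chain of non-muscle myosin and is linked to metastasis, measured 732.1 and 1120 FPKM in si-NC, against 617.3 and 718.2 FPKM in si-152. Its si-152 mean was 72.1% of its si-NC mean (925.9 ± 274.2 FPKM against 667.8 ± 71.4 FPKM, SD, n = 2 each). The log2 fold change of -0.44 (standard error 0.29, unadjusted p = 0.165 by limma) was smaller than the difference of 0.61 between the si-NC replicates. It was -0.25 in replicate 1 and -0.64 in replicate 2. The value was -0.75 without si-NC replicate 1 and -0.14 without si-NC replicate 2, and with quantile normalization it was -0.31 (unadjusted p = 0.0396 by limma). MYH9, the non-muscle myosin heavy chain that S100A4 binds, went the other way, at 51.7 and 38.1 FPKM with si-NC and at 61.4 and 51.2 FPKM in si-152 (log2 fold change 0.33, standard error 0.20, unadjusted p = 0.125 by limma). The groups overlapped for MYH9, and its si-NC difference, replicate 2 minus replicate 1, was -0.43. Without si-NC replicate 2 the log2 fold change of MYH9 was 0.12.

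S100A6, also called calcyclin, differed most of the 10 between the si-NC replicates. It measured 2211 and 4860 FPKM in si-NC, against 2610 and 3535 FPKM in si-152, so both si-152 values fell between the si-NC values. The si-NC replicates differed by 1.14 on the log2(FPKM + 1) scale, against a group difference of -0.11 (95% interval -1.18 to 0.96). The direction was opposite in the replicates, with 0.24 in replicate 1 and -0.46 in replicate 2, and it turned with quantile normalization (0.13) and without si-NC replicate 2 (0.46). CACYBP, the calcyclin-binding protein, was between 23.4 and 28.01 FPKM in the 4 libraries (log2 fold change -0.08, standard error 0.17).

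S100P, which binds ezrin and acts on cell shape and motility, was the lowest of the 10. It measured 1.16 and 1.41 FPKM in si-NC, against 0.907 and 0.541 FPKM in si-152, with both si-152 libraries lower. Only its si-NC libraries reached the filter of 1 FPKM, so it could hardly enter the test without being lower in si-152. Here the log2 fold change of -0.41 (standard error 0.21, unadjusted p = 0.0811 by limma) was larger than both replicate differences (0.15 and -0.31), though the pseudocount of 1 understates changes at this level. For S100P it was -0.26 without si-152 replicate 2. S100P was the only member higher in replicate 1 than in replicate 2 of si-152. Ezrin itself (EZR) measured 435.7 and 404.4 FPKM with si-NC, against 430.3 and 448.6 FPKM in si-152.

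S100A10 is a member whose loops no longer bind calcium, and it forms a stable complex with annexin A2 (ANXA2) at the cell membrane. It measured 158.0 and 211.4 FPKM in si-NC, against 127.9 and 153.9 FPKM in si-152. The groups were apart by a small margin, between si-NC replicate 1 and si-152 replicate 2. The log2 fold change was -0.38 (standard error 0.21, unadjusted p = 0.106 by limma), close to the difference of 0.42 between the si-NC replicates. For S100A10 it was -0.59 without si-NC replicate 1, -0.17 without si-NC replicate 2, -0.25 without si-152 replicate 1 and -0.51 without si-152 replicate 2 (unadjusted p = 0.0493 by limma in the last). ANXA2 measured 930.8 and 1041 FPKM with si-NC, against 788.6 and 924.7 FPKM in si-152 (log2 fold change -0.20, standard error 0.27, unadjusted p = 0.472 by limma). ANXA2 has processed pseudogenes that can share its reads. The ratio of ANXA2 to S100A10 was 5.89 and 4.93 in si-NC and 6.16 and 6.01 in si-152.

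S100A11, which binds annexin A1, measured 766.8 and 842.7 FPKM in si-NC, against 552.7 and 837.7 FPKM in si-152. The groups overlapped, since si-152 replicate 2 was within the range of si-NC. The log2 fold change of -0.24 (standard error 0.29) was -0.47 in replicate 1 and -0.01 in replicate 2, and turned to 0.06 without si-152 replicate 1. Of its 545 words of 50 bases, 12 also occur in another annotated gene (AC006483.1).

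S100A13, which takes part in the release of FGF1 and IL1A from cells, measured 185.1 and 312.3 FPKM in si-NC, against 162.8 and 233.6 FPKM in si-152. Its groups overlapped, and the log2 fold change of -0.30 (standard error 0.28, unadjusted p = 0.313 by limma) was smaller than both replicate differences (0.75 and 0.52). Without si-NC replicate 2 the sign turned (0.08). The level of this gene is uncertain, because 60.9% of the 50-base words of its transcript are shared with the overlapping gene AL162258.1, and 28 of its exonic bases overlap S100A1 on the other strand.

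On the log2(FPKM + 1) scale, replicate 2 was above replicate 1 by a median of 0.47 in si-NC and 0.36 in si-152, where the medians over all genes tested were -0.11 and -0.01. With quantile normalization the family's medians were 0.26 and 0.13, and with median-ratio size factors they were 0.61 and 0.38. Replicate 2 was higher in both groups for 9 of the 10 genes, against 29.4% of all genes tested. The exception was S100P. si-NC replicate 2 held the highest value of the 4 libraries for 9 of the 10 genes, against 18.3% of all genes, and si-152 replicate 1 the lowest for 8 of the 10, against 28.8%. Among tested genes with a coding length of at most 120 codons these shares were 50% and 60.8%.

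**Figure D3:**
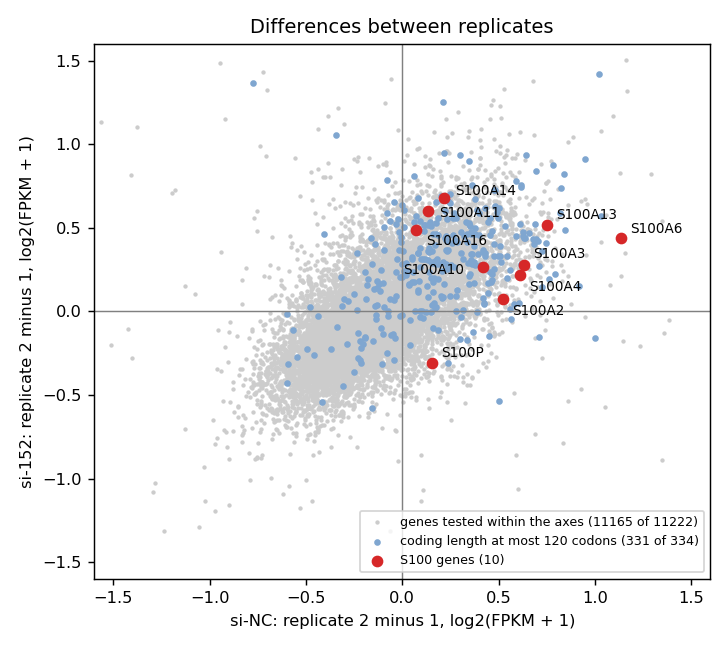
Replicate 2 minus replicate 1 on the log2(FPKM + 1) scale in si-NC (horizontal) and si-152 (vertical), for 11165 of the 11222 genes tested (grey), 331 of the 334 tested genes with a coding length of at most 120 codons (blue) and the 10 S100 genes (red). All 10 S100 genes lie right of 0, and S100P alone lies below 0 on the vertical axis.

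Other short or abundant genes were also mostly higher in replicate 2, by less in the median. Among the 334 tested genes with a coding length of at most 120 codons, the median difference between replicates was 0.19 in si-NC and 0.29 in si-152, and 67.7% were higher in replicate 2 of both groups. With si-152, 70.4% of these 334 genes were lower, the median log2 fold change was -0.11, and the groups were apart with si-152 lower in 20.4%. The 653 genes with a mean of at least 100 FPKM were a group chosen after the values were seen. Their medians between replicates were 0.19 and 0.30. In si-152, 73.8% of them were lower, with a median log2 fold change of -0.11 and 16.1% with groups apart and lower. The part of transcript length and abundance in the lower values of the S100 genes was not tested. Only for S100P was the group difference larger than the replicate differences of both groups, while for 5 of the 10 it was larger than the si-152 difference and for 3 larger than the si-NC difference. S100P entered the test only through si-NC, and without it these counts were 0, 4 and 2 of 9. The same counts were not made over all genes. For all genes tested, the median size was 0.13 for the group difference, 0.23 between si-NC replicates and 0.21 between si-152 replicates. For the 10 S100 genes these medians were 0.39, 0.47 and 0.37.

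**Figure D4:**
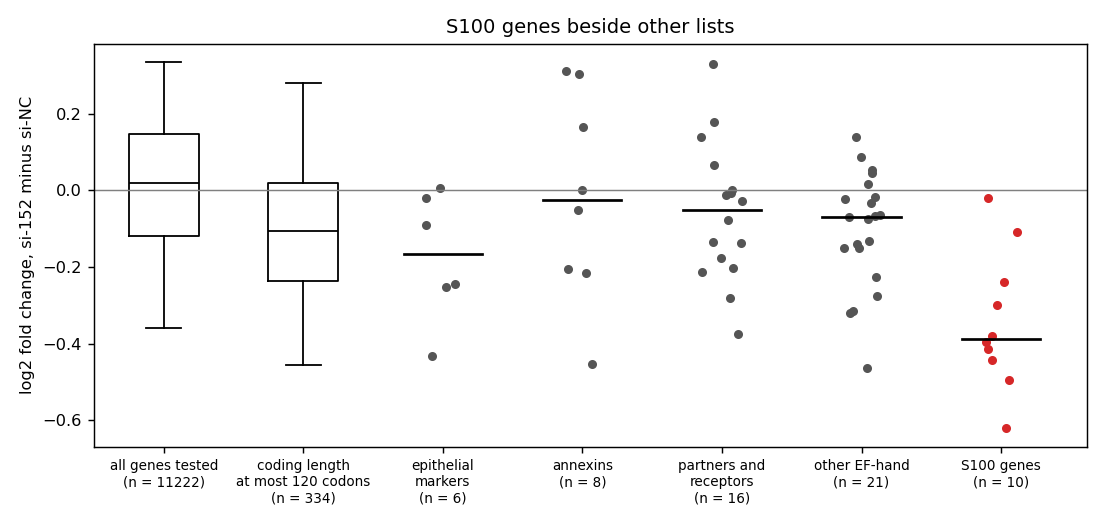
Log2 fold change (si-152 minus si-NC) of the S100 genes beside other lists. Boxes show the quartiles and the 5th to 95th percentiles, points single genes and bars medians. The S100 genes lie between -0.62 and -0.02, and the medians of the other lists lie between -0.17 (epithelial markers) and 0.02 (all genes).

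Annexins are membrane-binding proteins, several of which pair with S100 dimers. Of 13 annexins 8 were tested, with 4 lower and 4 higher, against 45.8% of all genes lower. Their median log2 fold change was -0.03. For ANXA3 alone was the unadjusted p below 0.05. It measured 214.3 and 200.5 FPKM with si-NC, against 144.2 and 158.3 FPKM with si-152 (log2 fold change -0.45, standard error 0.19, unadjusted p = 0.0365 by limma), and it passed that threshold in none of the 4 fits without a library. For ANXA1, the partner of S100A11, the log2 fold change was 0.00068 (standard error 0.22, and -0.02 with size factors), and for ANXA11, a partner of S100A6, it was -0.22 (standard error 0.17).

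Of 21 binding partners and receptors, 16 were tested, 11 lower and 5 higher, against 45.8% of all genes lower. Their median was -0.05, and 0 had an unadjusted p under 0.05 by limma. The count was also 0 with size factors and with quantile normalization, and 1 or 2 when a library was left out. AHNAK, a large scaffold bound by S100A10 and annexin A2, measured 33.7 and 22.4 FPKM with si-NC, against 35.7 and 21.1 FPKM in si-152, so that it differed more between replicates than between groups. The cell-surface receptors for released S100 proteins were chosen for mention after their values were seen, with TLR4 listed at 0 in all libraries, AGER (the receptor RAGE) at 0 in 3 libraries and 0.0341 FPKM in the other, and CD36 no higher than 0.0327 FPKM. The exception was BSG, a receptor described for S100A9, which was between 639.3 and 714.9 FPKM.

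Other EF-hand proteins sense or buffer calcium. Of 23 such genes 21 were tested, with 16 lower and 5 higher, against 45.8% of all genes lower. Their median log2 fold change was -0.07. RCN1, a calcium-binding protein of the endoplasmic reticulum, measured 164.3 and 171.8 FPKM with si-NC, against 113.8 and 129.9 FPKM in si-152 (log2 fold change -0.46, standard error 0.18, unadjusted p = 0.0306 by limma), and was the only gene of this list with an unadjusted p under 0.05. It lost this call in 3 of the 4 fits without a library. Neither RCN1 nor ANXA3 passed adjustment over all genes by limma (adjusted p = 0.9996).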

How the data were processed

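HCT116 RNA was sequenced by the authors from 4 libraries. Groups and replicate numbers come from the labels. The authors deposited 1 value per gene symbol and library, read here as FPKM from decimals, exact zeros and unequal sums. The submitters' processing notes name Trimmomatic, TopHat, HISAT2, HTSeq and DESeq and the build GRCh38, while versions, annotation, strand setting and the tool behind the values are not given in the sources used here. Depth was not derived from these values, so depth and counting error are unknown.

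A gene entered the test when 2 or more libraries reached 1 FPKM, and limma 3.58.1 (R 4.3.3) was run on log2(FPKM + 1) with a trend, without scaling and two-sided, with p-values adjusted over all 11222 genes by the Benjamini-Hochberg method. Fold changes on this scale understate changes of low genes. The unpaired count test of the study was not possible. With 2 replicates a group, p-values rest on the variance shared across genes. The fit was also run on simulated data, with noise independent between libraries and changes larger than any S100 fold change. Same-numbered libraries here had correlated deviations, so the simulation cannot show how the fit behaves with them. The members and lists were chosen with earlier results of these data known. Named are all members, listed genes with an unadjusted p under 0.05, 7 direct partners and family genes reaching 1 FPKM. Positions, coding lengths and shared 50-base words (both strands) come from GENCODE v29. Coding length stood in for protein length in the design, since no protein table was used here. Of the tables' symbols, 28 read as dates and 2 were repeats.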

Additional observations from a re-analysis of the deposited data

How the results depend on the processing

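Each result was recomputed with 1 choice changed at a time. A fit without 1 library leaves a lone library, assumed to vary like the others. Over all genes, 492 had an unadjusted p under 0.05 by limma, 796 with no filter and between 310 and 724 without a library. With a fold above 1.5 as well there were 186, and between 242 and 546 without a library. The 2 genes with an adjusted p under 0.05 by limma became 1 with a pseudocount of 0.1, no filter, size factors, quantile normalization or no trend, 0 with 1 FPKM asked of every library, and between 45 and 78 without a library. Of the S100 genes, 1 had an unadjusted p under 0.05, 2 with 1 FPKM asked of every library or quantile normalization, 0 with size factors, and between 0 and 4 without a library. Groups were apart in 3 with size factors (S100A2, S100A14 and S100P), against 15.5% of all genes, and in 6 with quantile normalization, against 16.6%. S100P entered the test only through si-NC. The S100 median log2 fold change ran from -0.6665 to -0.1535 without a library. Without S100P, chosen after seeing the data, it was -0.3792. Replicate medians in si-NC were 0.6056 with size factors and 0.2591 with quantile normalization, which gave 0.131 in si-152.

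Changes of sign were seen in 4 members, and the cause was not tested. Quantile normalization gave 0.1283 for S100A6 and 0.1176 for S100A16. Without a library, S100A6 ran from -0.6777 to 0.458, S100A11 from -0.5396 to 0.05943, S100A13 from -0.6762 to 0.07537 and S100A16 from -0.263 to 0.2219, and among partners ANXA1 from -0.1003 to 0.1017, CACYBP from -0.2001 to 0.0479 and AHNAK from -0.3651 to 0.3651. Size factors gave -0.01884 for ANXA1 and -0.01852 for AHNAK, for which a pseudocount of 0.1 gave -0.0005983. Annexins lower in si-152 numbered 7 with no filter, and 0 had an unadjusted p under 0.05 without a library. For partners and receptors that count was 1 to 2, the number lower 7 to 13 and the median -0.1654 to 0.0038. For other EF-hand genes the count was 0 to 4 and the median -0.1672 to -0.0484.

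The replicate numbers are shared by both groups but nothing in the labels ties them to a shared batch, and deviations of same-numbered libraries correlated at 0.52 across genes. With the replicate number as a block, 7 of the 10 S100 genes had an unadjusted p under 0.05 by limma, against 8.13% of all genes lower. The 7 included S100P (unadjusted p = 0.0347 by limma), which entered the test only through si-NC, so its lower direction was nearly fixed. Of the 10, 0 had an adjusted p under 0.05 (smallest adjusted p 0.0825 by limma, S100A14). The block gave 1893 genes in all with an unadjusted p under 0.05 and 78 with an adjusted one, and 3 annexins and 3 partners with an unadjusted one. Depth is unknown, so counting error at low levels such as those of S100P could not be given.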
